A study of Mus musculus with 16 samples.

Results

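CCR2+ macrophages of the mouse heart were compared with the pooled CCR2-negative macrophages of the same organ, over 4 arrays of CCR2+ cells and 8 arrays of CCR2-negative cells, 12 of the 16 arrays in the series. The arrays were chosen by their sample titles: "CCR2+ Mac" against the mean of "MHC-IIHi Mac" and "MHC-IIlo Mac", with 4 arrays in each of these 3 groups. All cells came from C57BL/6 mice that received no treatment. Heart tissue was minced and digested, and DAPI-negative (live) CD45+ MerTK+ CD64+ cells lacking Ly6c were sorted. CCR2+ macrophages were gated as CCR2 high and MHCII high. Both other gates took cells without CCR2: MHC-IIHi macrophages with much MHCII and little CD11c, and MHC-IIlo macrophages with little MHCII and no CD11c. The remaining 4 arrays held "Ly6cHi Mono", Ly6c-high monocytes from blood, and were read beside the comparison. Age and sex are not given in the labels, and neither is whether replicates were separate animals, so that p-values measure the spread between these samples, which may be technical.

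Resident macrophages of the heart are long-lived cells that clear dying cells and debris, handle iron and secrete growth factors, and most of them lack the chemokine receptor CCR2. CCR2 binds CCL2 and draws Ly6c-high monocytes out of the bone marrow and into tissue, where they can become macrophages. A CCR2+ macrophage can therefore carry transcripts that a blood monocyte already has, and others that are found at their highest level in the tissue cell.

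RNA from each sort (1 ng a sample, by the labels) was hybridised to Agilent 1-colour arrays, and a level is given here as the log2 signal of a gene's probe minus that of the array's 75th percentile, so that 0 is the signal of the 75th percentile. Between 52.8% and 69.3% of spots were well above background on each array, and no spot was saturated. The 75th percentile signal was 1380 to 1680 on the CCR2+ arrays, 944 to 1660 on the CCR2-negative arrays and 822 to 998 on the monocyte arrays. Level profiles correlated at 0.932 to 0.978 among the CCR2+ arrays across genes, and at 0.900 to 0.971 between CCR2+ and CCR2-negative arrays. Each slide carried 1 array of every group, and every group kept the same position on all slides, so that position and group cannot be told apart. In a second deposited table of processed values, all 16 columns matched the scanner file of another sample than their label, and 12 of them one of another group. The scanner files and their own labels were used here. As the cells were measured in bulk, fewer cells of a type and less RNA per cell cannot be told apart.

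The genes behind the sort followed the labels; they were used to choose the cells, so their differences check the labels and are no finding. Ccr2 stood at 0.85, 0.62, 0.42 and 0.54 on the CCR2+ arrays, and between -4.76 and -2.85 with a median of -3.51 on the CCR2-negative arrays, of which 3 of 4 MHC-IIHi and 1 of 4 MHC-IIlo arrays measured it above background. No CCR2-negative array reached the CCR2+ range, and the difference was 4.16 ± 0.24 (log2, SE; adjusted p = 7e-06, limma). Monocytes stood at 1.11 ± 0.14 (SD, n = 4), and their difference from CCR2+ macrophages did not pass the test (adjusted p = 0.20). Of the macrophage markers, Mertk (receptor for dying cells; -0.59 ± 0.20, adjusted p = 0.10), Fcgr1 (CD64; 0.12 ± 0.09, adjusted p = 0.50), Adgre1 (F4/80; -0.14 ± 0.12, adjusted p = 0.57) and Cd68 (-0.29 ± 0.11, adjusted p = 0.14) did not pass the test. Over the whole list of macrophage core markers, 2 of 9 measured members were called lower and none higher, with a median of -0.29. Of all genes 3.25% were called lower. Lyz2 was called lower at -0.41, a call lost in 14 of the fits that left out 1 array, and Csf1r, given below, was also called lower. In monocytes Mertk stayed below background on all 4 arrays, at least 36.6-fold under the CCR2+ level. Such bounds set the mean of the brighter group against, for each dim array, the higher of its lowest signal well above background and the probe's own. Itgax, the gene of CD11c, was gated low or negative in the CCR2-negative cells and was 7.14-fold higher in CCR2+ macrophages (adjusted p = 0.00097).

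Of 22052 genes tested, 1342 passed an adjusted p of 0.05 between CCR2+ and pooled CCR2-negative macrophages (6.09% of all genes), 626 higher (2.84%) and 716 lower (3.25%) in CCR2+ cells. The difference had the same sign on 4 of 4 slides for 1334 of them, which is no separate support, since the calls were made on these same slides. The 4 CCR2+ arrays and the 8 CCR2-negative arrays did not overlap for 594, against 769 (3.49%) of all genes tested. Most differences were modest: 340 of the higher and 399 of the lower genes were under 2-fold, and 89 and 53 were at least 4-fold. The counts depended on every CCR2+ array, with 701, 755, 645 and 833 genes called without CCR2+ replicates 1, 2, 3 and 4 in turn. The lower genes alone numbered 1148 without monocyte replicate 1 and 466 without MHC-IIlo replicate 4. Without the slide as a block 629 genes were called, and with only the macrophage arrays fitted 1992.

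Pooling put together gates that differ in MHCII by design, so each gene was also set against each gate. Over all genes 549 (2.49%; 1.22% higher and 1.27% lower) passed against MHC-IIHi, 1266 (5.74%; 2.83% higher and 2.91% lower) against MHC-IIlo and 77 (0.349%) between the gates. Of the 626 higher genes, 207 passed against both gates, 293 against MHC-IIlo alone, 49 against MHC-IIHi alone and 77 against neither gate alone. Of the 716 lower genes, 227 passed against both, 307 against MHC-IIlo alone, 38 against MHC-IIHi alone and 144 against neither. A pass in 1 gate and a miss in the other does not show that the gates differ. The test of MHC-IIHi against MHC-IIlo itself called 42 of the 626 higher genes, with MHC-IIHi on the CCR2+ side in 37, and 14 of the 716 lower genes, all 14 with MHC-IIHi on the CCR2+ side. H2-Ab1, a chain of the MHC class II molecule I-A, showed the pattern: it stood at 5.90, 5.81, 5.76 and 5.79 in CCR2+ cells, with a mean of 5.81 in MHC-IIHi and 3.99 in MHC-IIlo cells. Its pooled difference of 0.92 ± 0.21 (adjusted p = 0.025) came with 0.01 ± 0.24 against MHC-IIHi (adjusted p = 0.99) and 1.83 ± 0.24 against MHC-IIlo (adjusted p = 0.00088), and its pooled call was lost without CCR2+ replicates 1, 2 or 3, MHC-IIHi replicate 4 or MHC-IIlo replicate 2 (adjusted p up to 0.10).

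**Figure D1:**
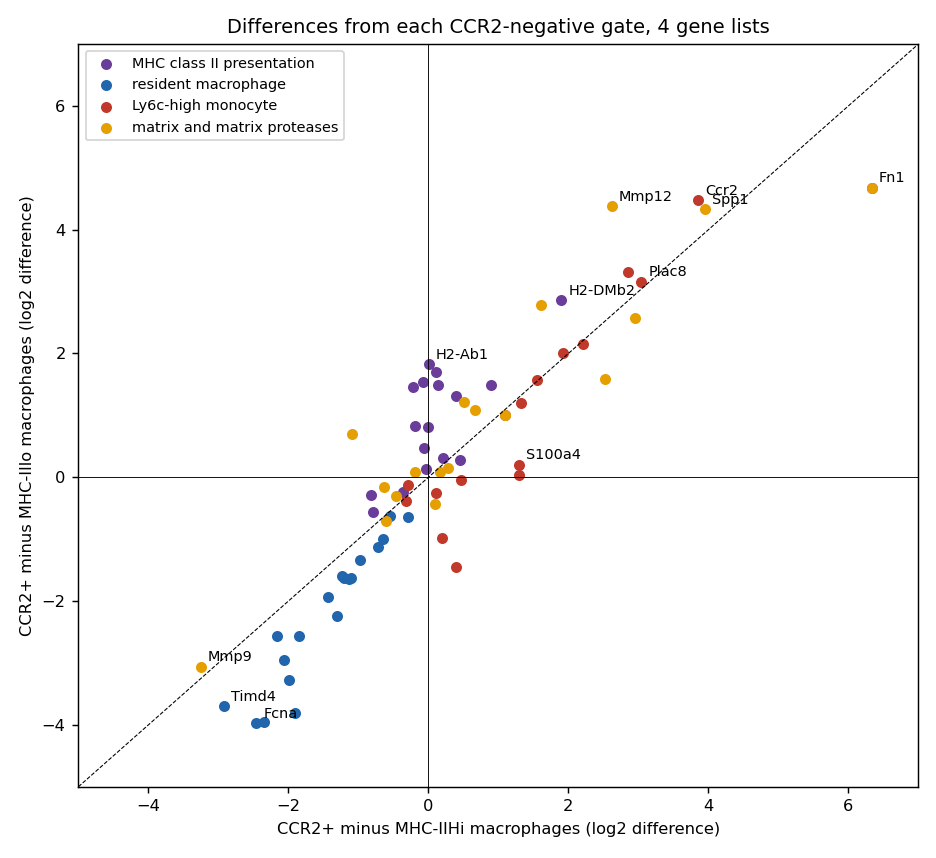
Log2 difference of CCR2+ macrophages from MHC-IIHi (x axis) and from MHC-IIlo macrophages (y axis) for the measured members of 4 gene lists, each point a gene; the dashed line marks equal differences, and both axes share the 4 CCR2+ arrays. Resident macrophage genes lie at or below 0 on both axes, H2-Ab1 lies at 0.01 and 1.83. Genes below background are drawn at their fitted value, among them Fn1, which no MHC-IIHi array measured and whose difference from that gate is at least 31.1-fold.

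Blood monocytes parted the higher genes into 2 main classes. A gene was counted as retained when monocytes were also called above CCR2-negative macrophages and CCR2+ macrophages were not called above monocytes; 361 of the 626 (57.7%) met this rule. It was counted as peaking when CCR2+ macrophages were called above monocytes and monocytes were not called above CCR2-negative macrophages, which 225 (35.9%) met. A further 7 met both calls and lay between, and 33 met neither. The rule uses the pooled CCR2-negative mean, so a peaking gene need not exceed MHC-IIHi cells. H2-Ab1 (0.01, adjusted p = 0.99) and Il1b (0.40, adjusted p = 0.25) were counted as peaking without passing against MHC-IIHi (limma). Over all genes 7479 (33.9%; 13.9% higher and 20% lower in CCR2+ cells) were called between CCR2+ macrophages and monocytes and 8089 (36.7%; 21% higher and 15.7% lower in monocytes) between monocytes and CCR2-negative macrophages. In the retained class monocytes were called above CCR2+ macrophages for 198 genes and not separated from them for 163. The median differences of the retained genes were 0.98 for CCR2+ and 1.57 for monocytes against CCR2-negative cells, and those of the peaking genes 0.92 and -0.44. The comparisons share arrays, so the counts describe and do not test. They also moved with single arrays: 221 and 199 retained genes were left without CCR2+ replicates 1 and 3, and 111, 127, 108 and 137 peaking genes without CCR2+ replicates 1, 2, 3 and 4. Monocytes came from blood and macrophages from digested heart, so that source and cell type cannot be told apart.

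**Figure D2:**
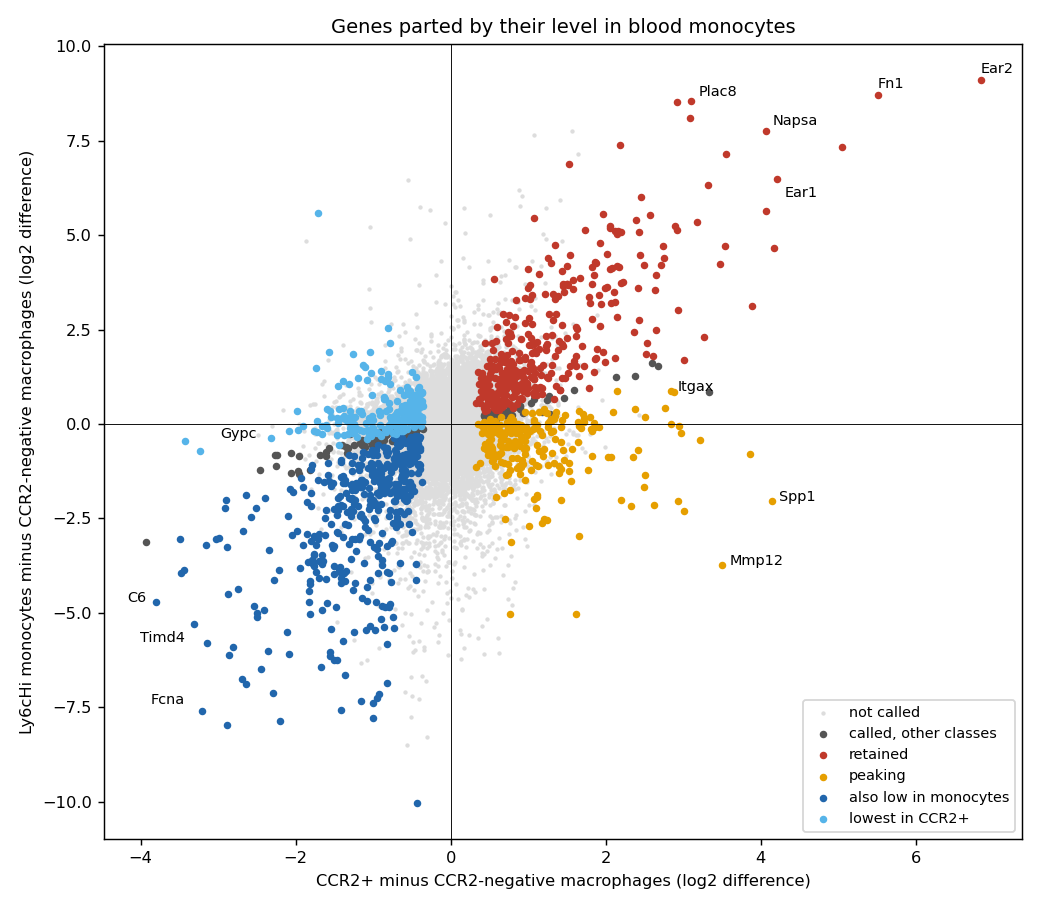
Log2 difference from pooled CCR2-negative macrophages of CCR2+ macrophages (x axis) and of blood Ly6cHi monocytes (y axis), 1 point for each of 22052 genes, coloured by class; both axes share the 8 CCR2-negative arrays, and genes below background are drawn at their fitted value. Ear2, Fn1 and Napsa lie high on both axes, Spp1 and Mmp12 lie right and below 0, and Timd4, Fcna and C6 lie low on both.

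The largest differences belonged to retained genes, led by the eosinophil-associated ribonucleases, small secreted RNA-degrading proteins. Ear2 stood at 1.52, 1.43, 1.45 and 1.00 on the CCR2+ arrays and was not well above background on any of the 8 CCR2-negative arrays. It was at least 31.8-fold higher in CCR2+ cells (adjusted p = 2.2e-10), and its monocyte mean of 3.62 was above that of CCR2+ cells by 2.27 on the log2 scale (adjusted p = 1e-06). Ear12 stood at 2.22, 2.12, 1.77 and 1.71 in CCR2+ cells against a range of -4.65 to -1.81 in CCR2-negative cells, a difference of 5.04 ± 0.32 (adjusted p = 9.1e-06). Ear1 differed by 4.21 ± 0.23 (adjusted p = 7e-06) and Ear10 by 1.85 ± 0.17 (adjusted p = 8e-05). None of these 4 genes overlapped between CCR2+ and CCR2-negative arrays. The genes are close relatives, and the 60-base probes of 3 of them are shown because they share runs, in capitals:
Ear12 probe: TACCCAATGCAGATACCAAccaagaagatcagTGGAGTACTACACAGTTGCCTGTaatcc
Ear1 probe: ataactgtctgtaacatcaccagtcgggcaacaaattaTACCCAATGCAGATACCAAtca
Ear10 probe: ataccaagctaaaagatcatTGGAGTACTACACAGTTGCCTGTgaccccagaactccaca
The Ear12 probe shares a run of 19 bases with the Ear1 probe and of 23 bases with the Ear10 probe, so signals of these relatives cannot be fully told apart. The Ear2 probe shares no run longer than 5 bases with any of the 3 probes. Probes were compared with probes only, not with the relatives' transcripts, so this does not show that the Ear2 signal is free of relatives. Of the 7 measured members of the ribonuclease list, which does not hold Ear12, 4 were higher (Ear1, Ear2, Ear10 and Rnase6) and 3 lower. Rnase4, a ribonuclease of another branch of the family, was lower by 1.45 ± 0.14 on the log2 scale (adjusted p = 0.0001).

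Fn1, which encodes the matrix protein fibronectin, stood at 1.61, 1.64, 1.91 and 0.17 in CCR2+ cells and between -6.15 and -2.39 in CCR2-negative cells. No MHC-IIHi array and 2 of 4 MHC-IIlo arrays measured it above background. The arrays did not overlap, with CCR2+ replicate 4 lowest, and the difference was 5.51 ± 0.50 (adjusted p = 7.8e-05). Monocytes were higher still, at a mean of 4.54. Napsa, an aspartic protease, had the same order, with CCR2+ arrays at 1.00, 0.99, 1.66 and 0.01, a CCR2-negative range of -5.38 to -2.01 and a monocyte mean of 4.62. It differed by 4.06 ± 0.41 (adjusted p = 0.00018). Plac8, a gene abundant in blood monocytes, stood at 0.53, 1.22, 2.78 and -0.86 in CCR2+ cells, between -3.23 and -1.61 in CCR2-negative cells and at a mean of 6.36 in monocytes. Its difference was 3.10 ± 0.51 (adjusted p = 0.0042), with CCR2+ replicate 3 highest and replicate 4 lowest. Map4k1, a kinase of lymphocyte and myeloid signalling, was at 0.94, 0.45, 0.45 and -0.17 in CCR2+ cells and differed by 4.07 ± 0.37 (adjusted p = 8.2e-05).

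Several retained genes lay below background in all 8 CCR2-negative arrays. Galnt9, a glycosyltransferase, was at least 3.60-fold (adjusted p = 3.2e-05), Clec4e, the Mincle receptor for mycobacterial glycolipid, at least 3.33-fold (adjusted p = 1.1e-05), Cd24a, a surface glycoprotein, at least 3.27-fold (adjusted p = 4.4e-05) and Ptgir, the prostacyclin receptor, at least 1.65-fold higher in CCR2+ cells (adjusted p = 3.4e-05). Monocytes were called above CCR2+ cells for Galnt9, Clec4e and Ptgir and were not separated from them for Cd24a (adjusted p = 0.10). Adgrg5, an adhesion G protein-coupled receptor, differed by 3.89 ± 0.60 (adjusted p = 0.0027), with 1 of 8 CCR2-negative arrays above background.

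Of the Ly6c-high monocyte list, 9 of 17 measured members were higher, none was lower, and all 9 fell in the retained class. That class requires monocytes called above CCR2-negative cells, which held for 16 of the 17, so the placing follows largely from the choice of list. The list includes the sort marker Ccr2 and was drawn up with results of these arrays known. The median difference of the 17 was 1.05, or 0.75 with dim members at their bound, against -0.04 over all genes. Chil3, a secreted chitinase-like protein, stood at -0.55, 1.00, 1.54 and -1.83 in CCR2+ cells and at 5.05 in monocytes, a pooled difference of 3.08 ± 0.60 (adjusted p = 0.012) that missed the threshold without CCR2+ replicates 2 or 3 (adjusted p = 0.056 and 0.050). Ly6c1, for whose product the macrophages were gated negative, stood at 2.37, 2.55, 3.68 and 1.96 against 1.07 to 1.61 in CCR2-negative cells and a monocyte mean of 5.76, a difference of 1.26 ± 0.24 (adjusted p = 0.010). Ly6c1 has a near-identical neighbour, Ly6c2, whose signal its probe may share. Plac8, Chil3 and Ly6c1 were highest on CCR2+ replicate 3 and lowest on CCR2+ replicate 4. On the linear scale, in multiples of the array's 75th percentile signal, the list summed to 250 to 365 on the CCR2+ arrays, 257 to 487 on the MHC-IIHi, 263 to 475 on the MHC-IIlo and 662 to 912 on the monocyte arrays. The part of monocytes carried through the sort in these differences was not tested.

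**Figure D3:**
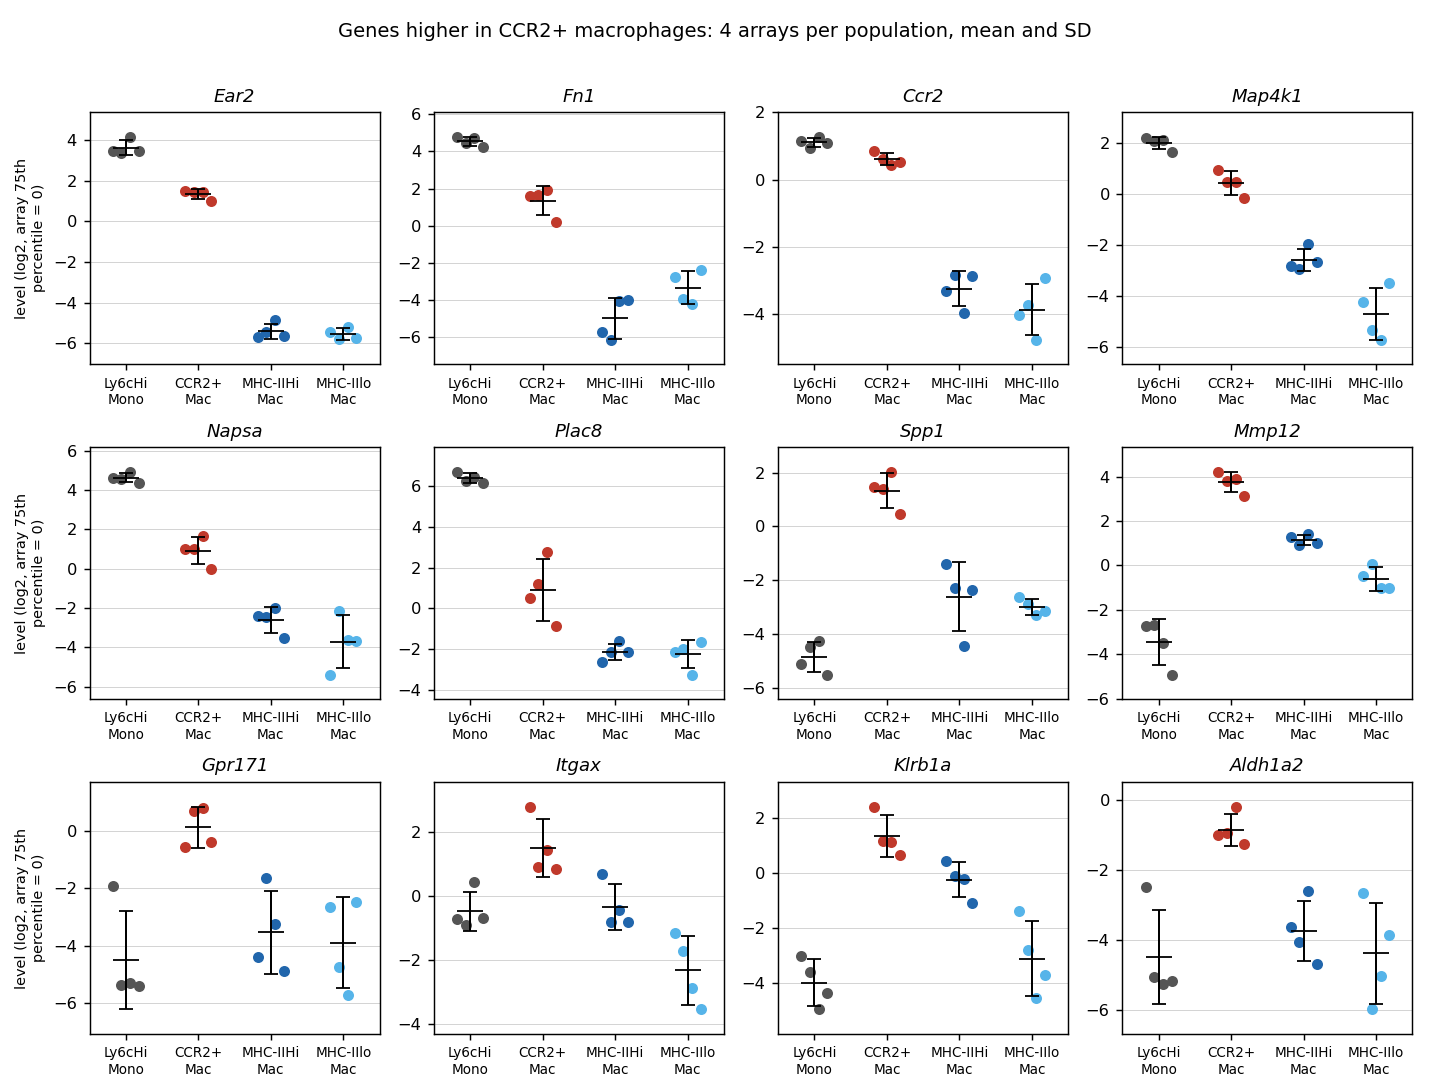
Level of 12 genes on each array (points; log2, with the array's 75th percentile at 0) in blood monocytes, CCR2+, MHC-IIHi and MHC-IIlo macrophages, 4 arrays a population, with mean and SD; points below background are drawn at their measured signal. Ear2, Fn1, Ccr2, Map4k1, Napsa and Plac8 have their highest mean in monocytes, and Spp1, Mmp12, Gpr171, Itgax, Klrb1a and Aldh1a2 in CCR2+ macrophages.

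The largest difference among genes peaking in CCR2+ macrophages was that of Spp1. Spp1, which encodes the phosphoprotein osteopontin, stood at 1.47, 1.38, 2.04 and 0.45 in CCR2+ cells and between -4.43 and -1.38 in CCR2-negative cells, without overlap. The difference was 4.14 ± 0.46 (adjusted p = 0.00029), and against monocytes, which were below background on all 4 arrays, Spp1 was at least 21.4-fold higher (adjusted p = 5.4e-06). Mmp12, macrophage elastase, stood at 4.21, 3.81, 3.91 and 3.14, against -1.03 to 1.39 in CCR2-negative cells. It was 11.3-fold higher (adjusted p = 3.1e-05), with a log2 difference of 2.62 from MHC-IIHi and of 4.38 from MHC-IIlo cells, and was at least 104-fold above monocytes (adjusted p = 2.4e-08). Of the matrix list, 6 of 18 measured members were higher and 2 lower, with a median difference of 0.54. Mmp9, a gelatinase, ran the other way: it was below background on all 4 CCR2+ arrays and on all 4 monocyte arrays, and was at least 3.90-fold higher in CCR2-negative cells (adjusted p = 0.00012).

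Aldh1a2, which makes retinoic acid, stood between -1.26 and -0.20 in CCR2+ cells, without overlap with the CCR2-negative range of -5.99 to -2.62 (3.22 ± 0.55, adjusted p = 0.0050). Kcnn4, a calcium-activated potassium channel, was measured on every array, at 2.07, 1.98, 2.08 and 1.79 against -1.98 to -0.42, a difference of 2.96 ± 0.21 (adjusted p = 1.5e-05) with a monocyte mean of -1.23. Klrb1a and Klrb1, lectin-like receptors best known from natural killer cells, differed by 3.01 ± 0.28 (adjusted p = 0.0001) and 2.93 ± 0.19 (adjusted p = 9.1e-06). Both had a higher mean in MHC-IIHi than in MHC-IIlo cells, with Klrb1a at 1.33 in CCR2+, -0.25 in MHC-IIHi and -3.11 in MHC-IIlo cells, and neither was above background in monocytes. Gpr171, a G protein-coupled receptor, was above background on 3 of 8 CCR2-negative arrays and differed by 3.86 ± 0.85 (adjusted p = 0.021), which missed the threshold without CCR2+ replicates 2, 3 or 4 (adjusted p = 0.081, 0.10 and 0.062). Itgax stood at 2.80, 0.91, 1.45 and 0.85, with MHC-IIHi at a mean of -0.34 and MHC-IIlo at -2.33; its difference from MHC-IIHi alone did not pass (1.84, adjusted p = 0.051).

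Tissue macrophages and blood monocytes also differed in immediate early genes, which cell stress and tissue digestion can induce. In monocytes 15 of 16 such genes were called below CCR2-negative macrophages, with a median difference of -2.91. Of all genes 15.7% were called so. Between CCR2+ and CCR2-negative macrophages 1 of 16 was called (6.25%), near the 6.09% of all genes, with a median of 0.13. That gene was Nr4a1, an orphan nuclear receptor (0.76 ± 0.15, adjusted p = 0.013; 0.072 and 0.068 without CCR2+ replicates 1 and 3, 0.20 without the slide as a block). Nr4a2, an orphan nuclear receptor outside that list, was in the peaking class (1.86 ± 0.34, limma adjusted p = 0.0075). The part of cell stress and tissue digestion in the peaking class was not tested.

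Signalling proteins moved in both directions. Beside the list counts above and below, 2.84% of all genes were called higher and 3.25% lower. Of 20 measured chemokine ligands, 4 were higher, all 4 in the peaking class, and 5 lower. Ccl17, a ligand of CCR4, was 3.77-fold higher (adjusted p = 0.0057), at 0.78, 0.05, -0.63 and -1.34 against -2.85 to -1.48. Cxcl10, an interferon-induced ligand of CXCR3, was 2.26-fold higher (adjusted p = 0.040), and it missed the threshold in 11 of 16 leave-one-out fits, among them those without each CCR2+ array (adjusted p up to 0.14) and without the slide as a block (adjusted p = 0.135). Ccl24, an eotaxin, stood at -1.05, 0.38, -0.15 and 0.34 against 1.80 to 3.27 and was 5.68-fold lower (adjusted p = 4.7e-05). Ccl8, a ligand of CCR8, was 4.88-fold lower (adjusted p = 0.012; 0.059 without CCR2+ replicate 4). Of 17 chemoattractant receptors 2 were higher and 2 lower. The 2 higher were the sort marker Ccr2 and Ccr7, which lost its call in 12 of the leave-one-out fits. S1pr1, the sphingosine-1-phosphate receptor of lymphocyte exit, was lower by 1.81 ± 0.15 on the log2 scale (adjusted p = 4.5e-05).

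The inflammasome and interleukin-1 list had 4 higher and 1 lower among its 14 measured members. Mefv, which encodes the sensor pyrin, stood at 1.52, 1.30, 2.26 and 0.90 against -1.94 to -0.44 and differed by 2.44 ± 0.22 (adjusted p = 8.2e-05). Il1b, the cytokine interleukin-1β, stood at 3.37, 3.39, 3.60 and 2.75 against 1.26 to 3.07, so that the groups overlapped. Its pooled difference was 1.11 ± 0.15 (adjusted p = 0.00087), with 1.83 against MHC-IIlo (adjusted p = 7.7e-05) and 0.40 against MHC-IIHi (adjusted p = 0.25), and it was 3.05 above monocytes. Il1rn, the receptor antagonist, was 2.53-fold (adjusted p = 0.0056) and Nlrp3, an inflammasome sensor, 1.51-fold higher (adjusted p = 0.0058; 0.054 without the slide as a block). Casp1 was among the 9 members that did not pass. Of 15 TNF family genes 2 were higher and 1 lower. Tnfrsf25 and Tnfrsf17, receptors of that family outside the list, were lower, by 3.44 ± 0.63 (adjusted p = 0.0081) and 3.48 ± 0.45 (adjusted p = 0.00081) on the log2 scale, each with 2 of 4 CCR2+ arrays above background.

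In MHC class II presentation, 5 of 17 genes were higher and none lower, and the 5 included the gate gene H2-Ab1. CCR2+ cells were gated MHCII high and MHC-IIlo cells in the pool MHCII low, so this count and the gating cannot be told apart. H2-DMb2, a chain of the peptide loader H2-M, stood at 2.66, 1.42, 1.52 and 1.75 against -1.64 to 0.95, without overlap, and differed from both gates (1.90 from MHC-IIHi, adjusted p = 0.0018; 2.87 from MHC-IIlo, adjusted p = 4.9e-05). H2-DMb1, the other beta chain of H2-M, and the alpha chain H2-DMa differed from MHC-IIlo (1.71, adjusted p = 0.00011; 1.49, adjusted p = 8.8e-05) but not detectably from MHC-IIHi (0.11, adjusted p = 0.78; 0.14, adjusted p = 0.65). H2-DMb1 and H2-DMb2 are close relatives, and with the mean of all its probes the pooled difference of H2-DMb1 was 0.46 in place of 0.91 (adjusted p = 0.029). H2-Aa, H2-Eb1 and Cd74 did not pass in the pooled comparison (adjusted p = 0.13, 0.055 and 0.18). In MHC class I presentation 1 of 14 was higher (7.14%, against 2.84% of all genes), Nlrc5, the class I transactivator (0.79 ± 0.14, adjusted p = 0.0067).

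Of 19 integrins and adhesion genes 5 were higher, among them the sort marker Itgax, and none lower. Itgb7 stood at 2.02, 1.99, 2.37 and 2.01 against 0.65 to 1.42 and at 4.70 in monocytes (difference 1.00 ± 0.14, adjusted p = 0.0015), and its partner Itga4, with which it binds mucosal addressin, differed by 0.80 ± 0.13 (adjusted p = 0.0034). Of 21 leukocyte kinases and adaptors 7 were higher and none lower. Cytip, a regulator of leukocyte adhesion, was 3.79-fold (adjusted p = 0.00013), Sh2d1b1, an adaptor of SLAM receptors, 6.39-fold (adjusted p = 0.0003) and Gpr132, a lipid- and proton-sensing receptor, 2.73-fold higher (adjusted p = 0.00028). In the colony-stimulating factor axis, both chains of the GM-CSF receptor were higher, Csf2rb by 0.48 ± 0.10 (adjusted p = 0.014; 0.065 and 0.060 without CCR2+ replicates 2 and 3) and Csf2ra by 0.55 ± 0.12 (adjusted p = 0.019; 0.054 to 0.083 without any 1 CCR2+ array). Csf1r, the M-CSF receptor, was lower by 0.44 ± 0.09 (adjusted p = 0.013; 0.056, 0.065 and 0.051 without CCR2+ replicates 1, 2 and 3). Its difference was -0.22 with quantile normalization (adjusted p = 0.22) and -0.37 with normexp (adjusted p = 0.084). Without the slide as a block Csf2rb, Csf2ra, Csf1r and Itga4 did not pass (adjusted p = 0.17, 0.12, 0.17 and 0.089).

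Of 35 transcription factors 9 were higher and 5 lower. Bhlhe40 stood at 1.22, 0.45, 0.69 and -0.46 against -2.63 to -1.33 and differed by 2.65 ± 0.25 (adjusted p = 0.00012), and Nfil3, a bZIP factor, by 2.14 ± 0.14 (adjusted p = 9.1e-06); both were in the retained class. Nr4a2, an orphan nuclear receptor, peaked in CCR2+ cells and differed by 1.86 ± 0.34 (adjusted p = 0.0075), or by 1.23 with the mean of its probes (adjusted p = 0.027). In glycolysis 4 of 19 genes were higher and none lower, led by the lactate exporter Slc16a3 at 2.86, 2.45, 3.05 and 2.21 against 1.32 to 1.93 (1.01 ± 0.12, adjusted p = 0.00041). Pgam1 and Pkm lost their calls without the slide as a block (adjusted p = 0.25 and 0.23), and Pkm and Slc2a1 each in 3 of the leave-one-out fits. In oxidative phosphorylation 1 of 25 passed, lower (4%, against 3.25% of all genes). Of 21 interferon-stimulated genes 4 were higher and none lower, with slide medians from 0.08 on slide 1 to 0.86 on slide 3. Cxcl10, Oas3, Rsad2 and Stat2 lost their calls without the slide as a block (adjusted p = 0.135, 0.067, 0.091 and 0.099). Rsad2 also lost its call in 13 of the leave-one-out fits. Of 9 S100 genes 3 were higher: S100a6 was 1.29 above MHC-IIHi (adjusted p = 0.00025) and 0.04 above MHC-IIlo (adjusted p = 0.88), and its pooled call was lost without the slide as a block (adjusted p = 0.16). In the cell cycle list 2 of 15 were higher (13.3%, against 2.84% of all genes), Mki67 and the ribonucleotide reductase subunit Rrm2. Both calls were lost without CCR2+ replicates 2 or 4 (adjusted p = 0.0657 and 0.0535 for Mki67, 0.0938 and 0.0784 for Rrm2). They were also lost without the slide as a block (0.24 and 0.074). With normexp Rrm2 differed by 1.07 (adjusted p = 0.089). Among lipid and lysosome genes 3 of 24 were higher and 4 lower. Fabp5, a fatty acid chaperone, stood at 0.33, 1.54, 0.86 and -0.57 against -2.42 to -1.47 (2.61 ± 0.28, adjusted p = 0.00025), and Abcg1, a cholesterol exporter, was 2.66-fold higher (adjusted p = 0.0008).

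**Figure D4:**
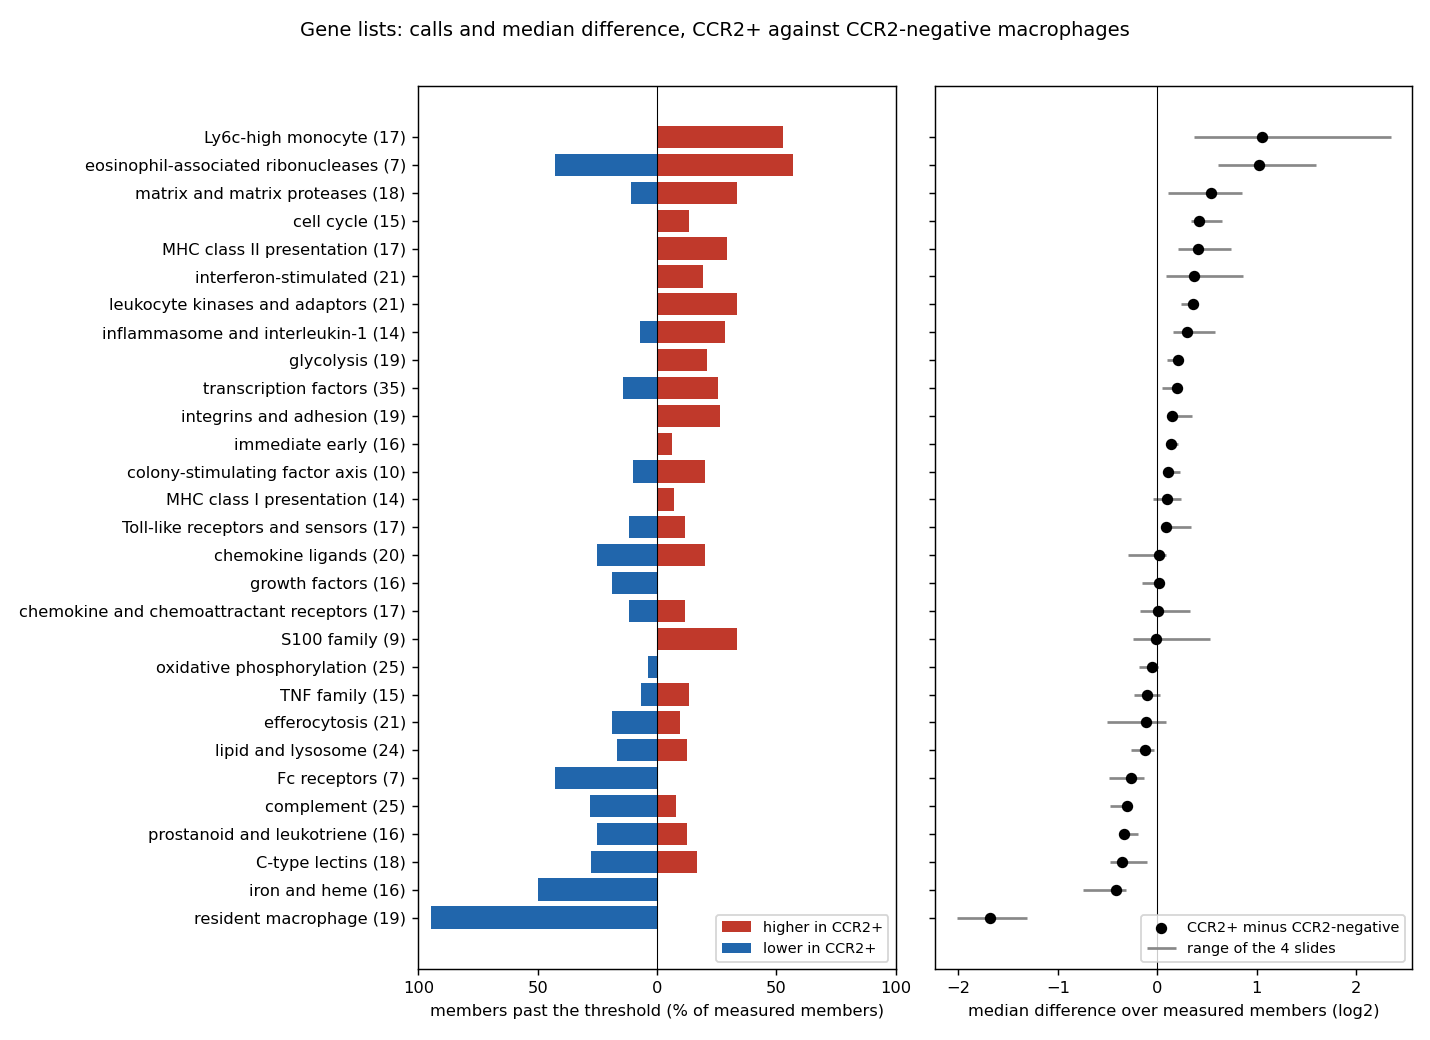
Left, the share of measured members past the threshold in each gene list (number in brackets), higher in CCR2+ macrophages to the right and lower to the left; right, the median log2 difference of all measured members (point) and its range over the 4 slides (line). The resident macrophage list has 18 of 19 members lower and a median of -1.69, and the Ly6c-high monocyte list 9 of 17 higher and a median of 1.05; lists were drawn up with results of these arrays known.

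Among the lower genes were most members of the resident macrophage list. Of 19 measured members of that list, 18 were lower and none higher, with a median difference of -1.69 and slide medians of -2.02 to -1.31; the list was drawn up with results of these arrays known and is not independent evidence of its direction. Timd4, which binds the phosphatidylserine exposed by dying cells, stood at -2.78, -4.13, -3.33 and -2.81 in CCR2+ cells, 3 of 4 of them above background, and between -0.60 and 0.57 in CCR2-negative cells. The arrays did not overlap and the difference was -3.31 ± 0.20 (adjusted p = 9.1e-06). Fcna, a ficolin of the lectin pathway, stood at 0.01, -0.03, 0.19 and -0.45 against 1.28 to 4.27 (-3.21 ± 0.23, adjusted p = 1.3e-05), with means of 2.39 in MHC-IIHi and 3.90 in MHC-IIlo cells. Cd163, the haemoglobin-haptoglobin scavenger receptor, stood at 2.25, 1.45, 2.07 and 1.77 against 3.73 to 4.75 (-2.36 ± 0.15, adjusted p = 9.1e-06). Vsig4, a complement receptor, differed by -3.15 ± 0.34 (adjusted p = 0.00025), and Ednrb, the endothelin receptor B, by -2.86 ± 0.41 (adjusted p = 0.0015). In these 5 genes CCR2+ cells lay between both neighbours: they were called above monocytes as well, with adjusted p from 4.3e-08 to 0.00027. Igf1, the growth factor, had the smaller difference of -1.15 ± 0.12 (adjusted p = 0.00025) and was 6.19 above monocytes.

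**Figure D5:**
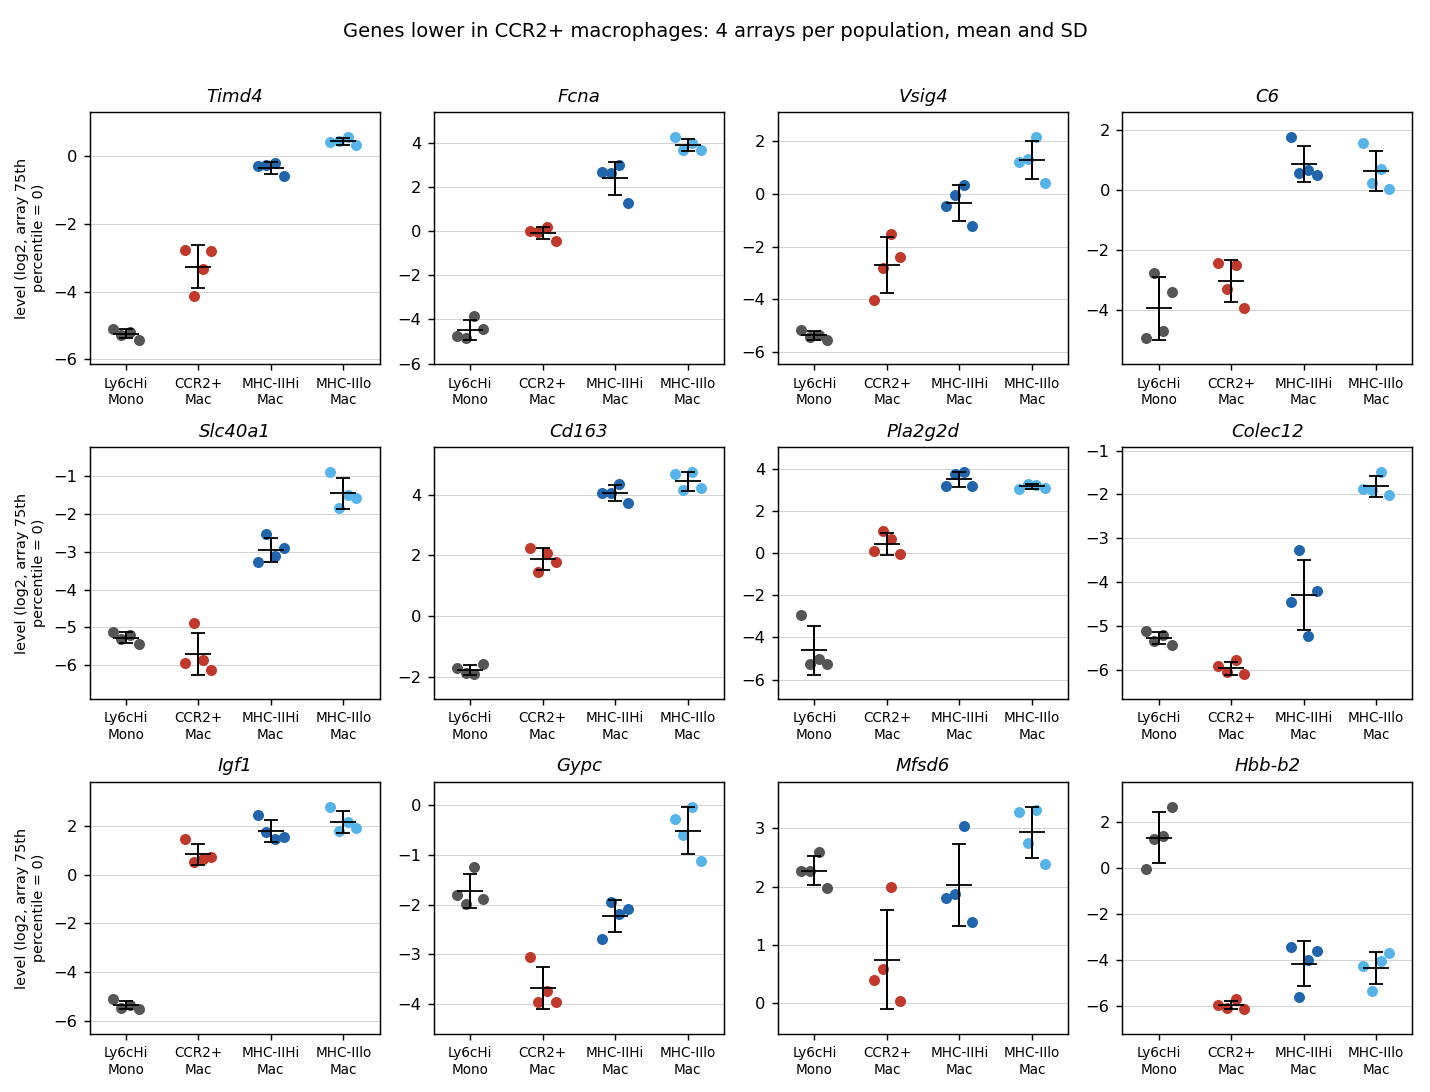
Level of 12 genes on each array (points; log2, with the array's 75th percentile at 0) in blood monocytes, CCR2+, MHC-IIHi and MHC-IIlo macrophages, 4 arrays a population, with mean and SD; points below background are drawn at their measured signal. Timd4, Fcna, Vsig4, Cd163, Pla2g2d and Igf1 step down from CCR2-negative to CCR2+ macrophages to monocytes, and Gypc, Mfsd6 and Hbb-b2 have their lowest mean in CCR2+ macrophages.

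Monocytes were also called below CCR2-negative macrophages for 413 of the 716 lower genes (57.7%), with CCR2+ cells not called below monocytes; CCR2+ cells were called above monocytes for 248 of them. The class held 250, 273 and 245 genes without CCR2+ replicates 1, 2 and 3. Of the complement list, 7 of 25 were lower and 2 higher, among the latter the sort marker Itgax. C6, a protein of the membrane attack complex, stood at -2.45, -3.30, -2.52 and -3.93 in CCR2+ cells, 3 of 4 above background, against 0.04 to 1.77 (-3.80 ± 0.46, adjusted p = 0.0005). Of 16 iron and heme genes 8 were lower and none higher, with a median of -0.42. Slc40a1, the iron exporter ferroportin, was below background on all CCR2+ and all monocyte arrays and at least 3.12-fold higher in CCR2-negative cells (adjusted p = 9.7e-06). Cp, the ferroxidase ceruloplasmin, stood at -0.28, -0.68, -0.60 and -0.32 against 1.41 to 1.96 and differed by -2.09 ± 0.16 (adjusted p = 2.5e-05). Tfrc, the transferrin receptor, was lower by 1.60 ± 0.27 (adjusted p = 0.0045), with 1 of 4 CCR2+ arrays above background; with normexp background correction its difference was -0.66 and did not pass (adjusted p = 0.078). The ferritin chains Fth1 and Ftl1 were among the 8 that did not pass.

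Among lipid mediators 4 of 16 genes were lower and 2 higher. Pla2g2d, a secreted phospholipase, stood at 0.12, 1.08, 0.69 and -0.05 against 3.06 to 3.88, a 7.40-fold difference (adjusted p = 0.00097) of like size against both gates (-3.05 and -2.72). Ltc4s, leukotriene C4 synthase, was 4.31-fold lower (adjusted p = 1.1e-05), and Hpgds, a prostaglandin D synthase, 2.13-fold (adjusted p = 0.00074; 0.22 without the slide as a block). Ptgir, given above, was one of the 2 higher. Of 18 C-type lectins 5 were lower and 3 higher, and their members moved in opposite directions: Clec4e and Cd209a (2.63 ± 0.49, adjusted p = 0.0088) were higher, and Cd209g, a relative of Cd209a, was lower by 2.99 ± 0.56 (adjusted p = 0.0093; 0.051 and 0.052 without CCR2+ replicates 1 and 3). Colec12, a scavenger receptor with a lectin domain, was below background in CCR2+ cells and monocytes and at least 1.73-fold higher in CCR2-negative cells (adjusted p = 8.2e-05), where all 4 MHC-IIlo arrays and 1 MHC-IIHi array measured it. Of 7 Fc receptors 3 were lower, led by Fcgrt, the neonatal Fc receptor, at 1.16, 0.51, 0.73 and 0.53 against 1.87 to 3.07 (-1.67 ± 0.13, adjusted p = 3.2e-05). Of 21 efferocytosis genes 4 were lower and 2 higher; Gas6, the ligand that bridges MerTK to dying cells, was 2.66-fold lower (adjusted p = 0.00082). Of 16 growth factors 3 were lower and none higher: Bmp2 (-1.83 ± 0.24, adjusted p = 0.00085), Pdgfc (-1.70 ± 0.30, adjusted p = 0.0064) and Igf1. Rgs7bp, a partner of regulators of G protein signalling, and Fgf9, a fibroblast growth factor outside the list, were below background in all CCR2+ and monocyte arrays and at least 3.62-fold (adjusted p = 7e-06) and 3.49-fold higher (adjusted p = 9.1e-05) in CCR2-negative cells.

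A further 230 lower genes (32.1%) were counted as lowest in CCR2+ cells. They were called below the pooled CCR2-negative cells and monocytes, but not necessarily below each gate. Their median difference from CCR2-negative cells was -0.70, 4 were at least 4-fold, and 12 were below background on all CCR2+ arrays. This class was the least stable: it held 71, 78, 66 and 105 genes without CCR2+ replicates 1 to 4, 146, 145 and 135 without MHC-IIHi replicates 2, 3 and 4, 389 without MHC-IIlo replicate 1, and 147, 141 and 118 without MHC-IIlo replicates 2, 3 and 4. Gypc, the membrane protein glycophorin C, stood at -3.06, -3.97, -3.74 and -3.96, with 1 of 4 arrays above background, against -2.70 to -0.02 (-2.32 ± 0.23, adjusted p = 0.00014) and a monocyte mean of -1.73. Mfsd6, a membrane transporter family protein, stood at 0.40, 0.58, 1.99 and 0.04 against 1.40 to 3.31, and CCR2+ replicate 3 overlapped (-1.73 ± 0.20, adjusted p = 0.00038). Ctla2a, a cysteine protease inhibitor, stood at -1.83, -1.83, -2.10 and -2.64 against -1.71 to 1.24 (-1.73 ± 0.26, adjusted p = 0.0023). Olfr1272, an olfactory receptor, was below background in CCR2+ cells, at least 3.54-fold higher in CCR2-negative cells (adjusted p = 0.0082) and above background on 3 of 4 monocyte arrays. Hbb-b2, a beta globin, was above background on no CCR2+ array, 2 CCR2-negative arrays and all 4 monocyte arrays; its call was lost in 7 of the leave-one-out fits (adjusted p up to 0.12), and with normexp its difference was -0.50 (adjusted p = 0.40).

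Promoters of the classes were read for 9 sequence words on both strands, in the 250 bases before and 50 after the start site that RefSeq gives on GRCm38.p6; 13015 tested genes had a promoter. TGCTGAC, a word bound by MAF factors, lay in 4.73% of all promoters, in 3.20% of the retained, 2.53% of the peaking, 8.62% of the genes also low in monocytes and 8.33% of those lowest in CCR2+ cells. GAGGAAGT, a PU.1 word, lay in 3.79% of all, 7.2% of retained, 8.86% of peaking, 5.86% of also low and 1.67% of lowest genes. The interferon response word lay in 3.95% of all and 8%, 5.06%, 3.10% and 6.67% of the same classes in that order. TGANTCA, an AP-1 word, lay in 7.35% of all and 12%, 12%, 8.62% and 9.17%. For the NF-kappaB word the shares were 1.91% of all and 3.60%, 2.53%, 2.07% and 1.67%, for TTGCGNAA (C/EBP) 1.24% and 1.20%, 0%, 1.72% and 0.833%, for CACGTG (E-box) 10.3% and 11.6%, 13.3%, 8.62% and 9.17%, for TGACGTCA (CRE) 2.97% and 1.20%, 3.80%, 1.38% and 2.50%, and for CACCC (KLF) 65.0% and 68.8%, 68.4%, 70.3% and 66.7%. No test was made of these shares, and a match is no evidence of binding.

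The 250 bases before the start site are shown for 2 lower genes with the MAF word and 2 peaking genes with the PU.1 word, 5′ to 3′ on the gene's strand, the word in capitals in either orientation. Timd4 lies at chr11:46810549-46810798 (plus strand), Fcna at chr2:25627975-25628224 (minus), Spp1 at chr5:104434861-104435110 (plus) and Mmp12, of which RefSeq's table holds another promoter too, at chr9:7344147-7344396 (plus).
Timd4: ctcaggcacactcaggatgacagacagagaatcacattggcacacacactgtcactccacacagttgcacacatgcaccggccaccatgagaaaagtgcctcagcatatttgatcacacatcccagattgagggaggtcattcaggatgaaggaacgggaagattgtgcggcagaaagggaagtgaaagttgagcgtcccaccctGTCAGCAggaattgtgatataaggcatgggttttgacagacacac
Fcna: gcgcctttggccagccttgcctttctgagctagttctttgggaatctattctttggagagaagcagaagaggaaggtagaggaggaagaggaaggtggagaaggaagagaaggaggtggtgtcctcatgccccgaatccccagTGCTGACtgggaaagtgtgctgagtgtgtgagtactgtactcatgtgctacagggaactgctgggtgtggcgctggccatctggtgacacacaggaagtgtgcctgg
Spp1: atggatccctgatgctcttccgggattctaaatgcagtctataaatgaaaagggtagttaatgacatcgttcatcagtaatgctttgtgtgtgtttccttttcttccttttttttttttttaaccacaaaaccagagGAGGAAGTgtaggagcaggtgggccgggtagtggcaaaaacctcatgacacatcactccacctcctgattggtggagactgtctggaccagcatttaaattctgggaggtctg
Mmp12: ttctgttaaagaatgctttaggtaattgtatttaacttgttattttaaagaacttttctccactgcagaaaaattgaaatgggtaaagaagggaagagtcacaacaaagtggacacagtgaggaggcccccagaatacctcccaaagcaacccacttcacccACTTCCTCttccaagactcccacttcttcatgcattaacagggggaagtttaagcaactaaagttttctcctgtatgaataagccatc

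Markers of other cells were read in full where measured. Of the conventional dendritic cell list, 6 of 13 measured members were higher and none lower, namely Cd24a, Cd209a, Ccl17, Dpp4 (1.58 ± 0.26, adjusted p = 0.0041), Batf3 and Ccr7 (lost in 12 of the leave-one-out fits, adjusted p up to 0.17, and without the slide as a block, adjusted p = 0.10); 4 of the 6 were also in the retained class. Flt3 and Zbtb46, which define that lineage, did not pass (adjusted p = 0.076 and 0.46). In multiples of the 75th percentile signal the list summed to 44.6 to 49.9 on CCR2+ arrays, 40.4 to 51.8 on MHC-IIHi, 44.0 to 49.2 on MHC-IIlo and 54.7 to 55.8 on monocyte arrays. Of 9 neutrophil markers 1 was higher, Ly6g (1.27 ± 0.33, adjusted p = 0.043, lost in 9 of the leave-one-out fits with an adjusted p up to 0.17), and 1 lower, Mmp9. No member of the B cell (8), endothelial (12), cardiomyocyte (19) or eosinophil and mast cell (5) lists passed. Only 5 of 12 listed eosinophil and mast cell, 9 of 15 T and NK, 9 of 13 neutrophil and 7 of 12 fibroblast markers were measured. The rest could not be called, so few calls do not show the absence of these cells. The eosinophil and mast cell list, read because of the ribonucleases above, summed to 2.14 to 3.89 on CCR2+ arrays and 1.80 to 4.20 on CCR2-negative arrays. Of the T and NK list 1 of 9 passed, Cd4 (-1.23 ± 0.23, adjusted p = 0.0095; -0.72 with the mean of its probes), of the fibroblast list 1 of 7, Dcn, and of the erythrocyte and platelet list 1 of 8, Pf4, all 3 lower. Dcn lost its call in 7 of the leave-one-out fits and Pf4 without CCR2+ replicates 2, 3 or 4 (adjusted p up to 0.11 and 0.098); Dcn also lost it without the slide as a block (adjusted p = 0.12) and with normexp (adjusted p = 0.069). The T and NK list summed to 4.53 to 7.60 on CCR2+ and 7.76 to 11.4 on CCR2-negative arrays, and the erythrocyte and platelet list to 13.9 to 18.4 and 29.1 to 56.6. Such sums weigh the brightest members most. The median log2 differences of these lists were -0.08 and -0.01, with 4 of 9 and 4 of 8 members above 0. Cardiomyocyte markers summed to 28.8 to 42.8 on CCR2+ arrays, 33.6 to 48.1 on CCR2-negative arrays and 9.92 to 12.6 on monocyte arrays. The part of these cells in the differences was not tested.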

How the data were processed

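RNA of 16 sorted samples, 4 in each of 4 groups, was measured on Agilent 1-colour arrays, 1 array a sample. The deposited scanner files give spot intensity (processed signal, background-subtracted) from Agilent Feature Extraction 11.5.1.1, per the file headers; Partek is named in the submitters' processing notes without a step. A second deposited table holds log2 values and was used only to match its columns to the arrays, since their labels disagree with the scanner files.

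Gene names were found by content, as the name columns of 16 files are shifted. Marked spots were left out, spots of a probe averaged, log2 intensity scaled to each array's 75th percentile, and probes kept that were well above background on at least 4 of 16 arrays (27662 of 39429). The brightest kept probe stood for a gene. All 16 arrays were fitted with limma 3.58.1 in R 4.3.3 (Python 3.11.15 for tables), 1 mean per group and the slide as a block, 9 residual degrees of freedom, Benjamini-Hochberg over 22052 genes (17272 with a symbol). Adjusted p-values are limma's unless said otherwise, and the number of arrays limits the precision. Replicate numbers pair samples through the shared slide, in the headers: deviations of same-numbered samples correlated at 0.14 to 0.64 in 24 of 24 pairs. The 72 pairs of other slides and groups lay at -0.54 to 0.49. These ranges overlap, and taking deviations from group means itself lowers correlations between slides.

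On simulated data with 200 changed genes, the fit called 60% of 50 genes changed by 1, 90% of 100 changed by 2 and 100% of 50 changed by 3 on the log2 scale, with 8 false among 178 calls. The simulation had independent normal noise of each gene's fitted spread, equal array quality and changes in CCR2+ cells only. Its share of false calls need not hold for the real arrays, whose fitted weights differed. Members and gene lists were chosen with earlier results of these data known. Named genes were, among called genes with a symbol and 1 sign on 4 of 4 slides, the 12 highest and 12 lowest, the 8 largest of each class, up to 4 called members of each list (all where 5 or fewer were called), and the sort and core markers. Rnase6, Batf3, Casp1, Fth1, Ftl1, Flt3 and Zbtb46 are named beside a count where they fall outside it. Alternatives were the block, the arrays fitted, scaling, background correction, the filter, probe choice, array weights and leaving out each array.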

Additional observations from a re-analysis of the deposited data

Results flagged for a closer look

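Over 58 genes, 198 groups of 4 arrays were examined for a single array far from the other 3, and 14 were found; chance flags about 1 in 20 groups. Among CCR2+ arrays, replicate 4 was low for Ear2 (1.00, the others 1.43 to 1.52) and for Fn1 (0.17, the others 1.61 to 1.91), and replicate 1 was low for Itgam (6.63, the others 6.81 to 6.83). Among MHC-IIHi arrays, replicate 3 was low for H2-Ob (-0.01, the others 0.84 to 0.86), replicate 1 was high for C6 (1.77, the others 0.49 to 0.66) and replicate 4 was low for Rgs7bp (-4.26, the others -2.85 to -2.64). Among MHC-IIlo arrays, replicate 4 was low for Ear12 (-4.65, the others -3.29 to -3.05) and for Cd209g (-3.27, the others -0.67 to -0.53).

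Among monocyte arrays, replicate 1 was high for Gpr171 (-1.93, the others -5.41 to -5.30) and Aldh1a2 (-2.48, the others -5.26 to -5.06) and low for Kcnn4 (-1.75, the others -1.09 to -1.04). Monocyte replicate 3 was high for Ear2 (4.17, the others 3.39 to 3.48) and Itgax (0.43, the others -0.90 to -0.69), and monocyte replicate 2 was high for Tnfrsf25 (-1.42, the others -5.38 to -5.09).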

How the results depend on the processing

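Without the replicate block, 629 genes were called (626 of them also called with it), 314 higher and 315 lower, with 210 retained, 92 peaking, 239 also low in monocytes and 54 lowest in CCR2+ cells. With array weights there were 2859 calls, 1205 higher and 1654 lower, with 573, 432, 674 and 544 in the same classes. With only the macrophage arrays fitted, 1992 genes were called, 823 higher and 1169 lower. Leaving out 1 array at a time gave 645 to 1975 calls, 316 to 827 higher, 329 to 1148 lower, 199 to 456 retained, 108 to 287 peaking, 245 to 616 also low in monocytes and 66 to 389 lowest in CCR2+ cells. Median scaling, quantile normalization, normexp, both other filters and the mean of probes gave 1175, 1465, 1389, 1189, 1371 and 1396 calls. Of 126 called genes examined singly, 0 reversed under the alternatives run, which the choice of called genes made likely beforehand. The call was lost by 35 without the block, and by 26, 30, 37 and 28 without CCR2+ replicates 1 to 4. The cause of these changes was not tested. Slides of 1 scan date alone were not run, since all arrays were scanned on 1 date. Probes near background limit the low side of each comparison: normexp, which keeps an offset of 50, gave smaller differences for dim genes, such as Galnt9 (1.75), Clec4e (1.62), Cd24a (1.56), Ptgir (1.03), Adgrg5 (2.10), Aldh1a2 (1.80), Dpp4 (0.76), Cd209g (-1.53), Mmp9 (-1.44), Slc40a1 (-1.74), Rgs7bp (-1.72), Fgf9 (-1.66) and Olfr1272 (-1.54), all still called.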
